A study of Homo sapiens with 6 samples.

Results

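Neuronal microtubule and stathmin genes were compared between H69M and H69, lines of small cell lung cancer cells, on 3 arrays of each line. The set was a fixed list of 10 genes: the stathmins STMN1, STMN2, STMN3 and STMN4, the beta-tubulin gene TUBB3, DCX, the microtubule-associated protein genes MAP2, MAPT and MAP1B, and the motor gene KIF5C. Members were found by platform gene symbol, and a gene with more than 1 probe set was represented by the one with the highest mean over all 6. Of the 10 genes, 9 had a probe set with a single symbol, among 18404 genes measured that way. The only probe set listing TUBB3 also lists MC1R, so no value was given to TUBB3. The groups were H69M cells and H69 cells, both labelled as small cell lung cancer and with no treatment named. H69 cells are neuroendocrine and grow in suspension as clumps. The origin of H69M, and whether it is 1 clone, is not in the labels. Nor do they call the 3 replicates of a line separate cultures, so the p-values rest on a spread between arrays that may be technical only.

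Microtubules are hollow polymers of alpha- and beta-tubulin. Stathmins bind free tubulin dimers and promote disassembly, whereas tau (MAPT), MAP2, MAP1B and doublecortin (DCX) bind the polymer and stabilise it, and kinesin and dynein motors carry cargo along it. Neurons and neuroendocrine tumour cells share many of these proteins, and STMN2, DCX, MAP2 and KIF5C are commonly read as neuronal genes. STMN1 differs from the others in being abundant in dividing cells of many kinds.

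Values are log2 RMA values per probe set, on which a difference of 1 is a doubling. Such values carry no detection call, and levels of different genes cannot be set against each other because probes differ in brightness. Array medians lay between 6.43 and 6.48, and arrays of a line correlated across genes with r between 0.995 and 0.998, against 0.938 to 0.950 between lines. Of 10 measured neuroendocrine markers, 7 were lower in H69M and 0 higher, with a mean level of 8.96 to 9.29 on the H69M arrays and 9.75 to 9.80 on the H69 arrays. All 8 fibroblast markers were higher, with a mean level of 8.83 to 9.29 on the H69M arrays and 5.51 to 5.59 on the H69 arrays. Defining markers of leukocytes averaged 4.44 to 4.52 in H69M and 4.57 to 4.70 in H69, and those of endothelial cells 5.05 to 5.21 in H69M and 5.13 to 5.16 in H69. Fewer cells of a type and less RNA per cell cannot be told apart in such bulk samples, and the part of these marker shifts in the results below was not tested.

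The 4 stathmin genes did not pass the test, and DCX, MAPT, KIF5C, MAP1B and MAP2 all fell in H69M. Thus 5 of 9 measured members were lower and 0 were higher in limma (Benjamini-Hochberg adjusted p threshold 0.05). Over all genes 44.2% passed, 21.0% higher and 23.2% lower. The median log2 difference was -0.25 over the members and -0.041 over all genes. Arrays of the lines did not overlap for 5 of 9 members, the 5 that fell, against 55.8% of all genes. The share of members whose arrays did not overlap was therefore close to that of all genes, and so was the share that passed in either direction, while all the members that passed were lower. The members were chosen with results of these arrays known, so that direction is given as a description.

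**Figure D1:**
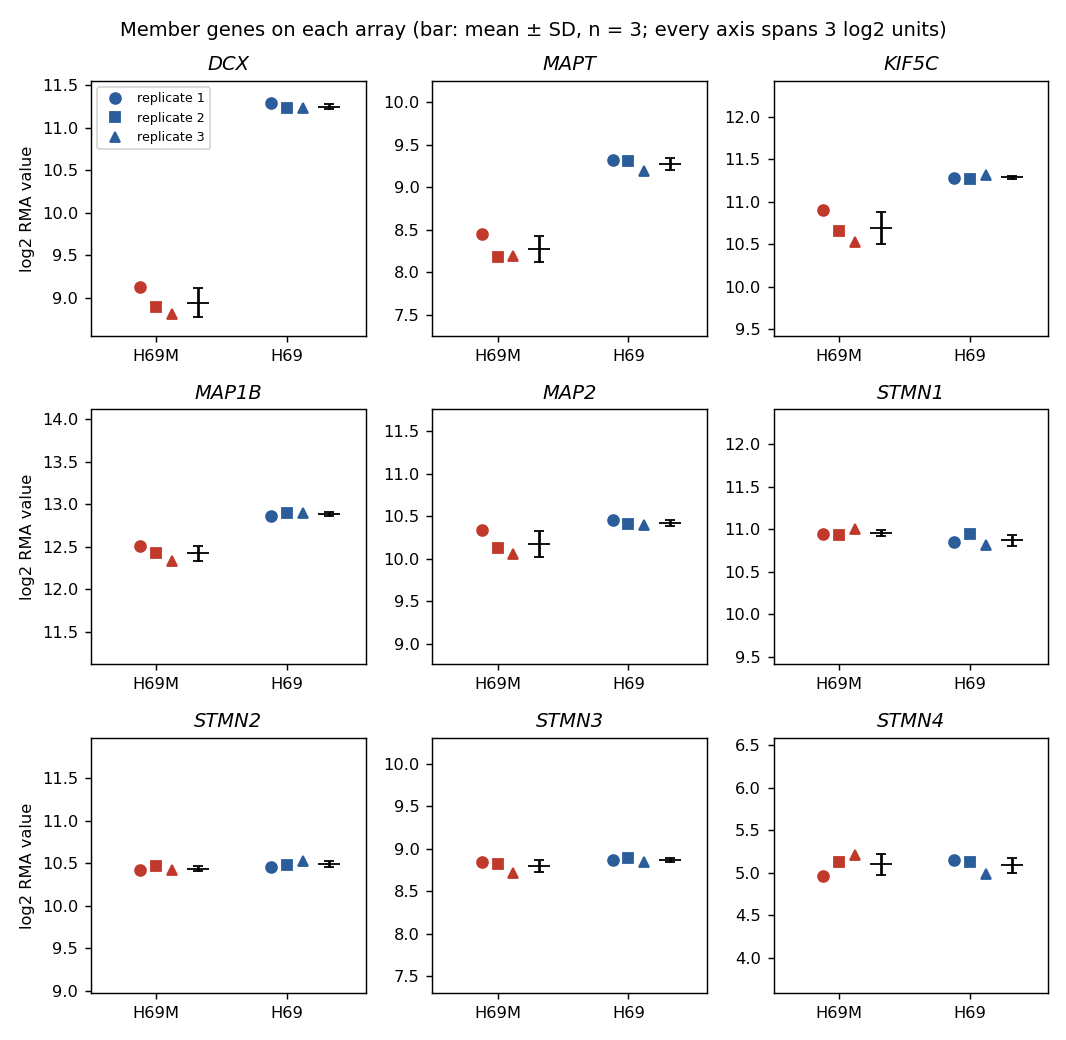
Log2 RMA value (vertical axis, each panel spanning 3 log2 units) of the 9 measured members on each H69M array (red) and H69 array (blue), with the mean ± SD of 3 arrays as a black bar. DCX and MAPT are lower on every H69M array, while the stathmin arrays of the lines overlap.

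DCX had the largest change of the set. It encodes doublecortin, which binds in the groove between protofilaments and is needed in migrating neurons. DCX read 9.13, 8.89 and 8.81 on the 3 H69M arrays, against 11.29, 11.23 and 11.23 on the 3 H69 arrays. Every H69M array was thus more than 2 log2 units below every H69 array. The difference was -2.31 ± 0.087 (log2, SE), and DCX was 4.96-fold lower in H69M (adjusted p = 7.31e-07 in limma). By size of fall DCX ranked 46 among 18404 genes. At least 2-fold falls that passed were found in 2.72% of genes.

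MAPT came next. Its product tau binds along axonal microtubules. MAPT read 8.45, 8.18 and 8.19 in H69M, against 9.32, 9.31 and 9.19 in H69. The lines were clearly apart, with a difference of -1.0 ± 0.088 (log2, SE), a 2.0-fold lower value in H69M (limma adjusted p = 5.41e-05). It ranked 503 among the falls.

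KIF5C, a heavy chain of the cargo motor kinesin-1 that is most abundant in neurons, read 10.90, 10.65 and 10.53 in H69M, against 11.28, 11.27 and 11.31 in H69. The H69M arrays spread more widely (SD 0.19) than the H69 arrays (SD 0.021), yet all lay lower. The difference was -0.59 ± 0.095 (log2, SE), or 1.51-fold lower in H69M (limma adjusted p = 0.00138). MAP1B, which stabilises microtubules in growing axons, read 12.51, 12.43 and 12.33 in H69M, against 12.86, 12.90 and 12.90 in H69. These arrays lay close together within each line, and MAP1B was 1.38-fold lower in H69M (-0.46 ± 0.065, log2, SE; limma adjusted p = 0.000691).

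MAP2, the microtubule-associated protein of dendrites, had the smallest fall that passed. It read 10.34, 10.13 and 10.05 in H69M, against 10.46, 10.41 and 10.39 in H69. The groups did not overlap, but the highest H69M array lay close to the lowest H69 array. The difference was -0.25 ± 0.081 (log2, SE; limma adjusted p = 0.0397), 1.19-fold lower in H69M. This call was lost when H69M replicate 2 (adjusted p = 0.112), H69M replicate 3 (0.114), H69 replicate 1 (0.116), H69 replicate 2 (0.0865) or H69 replicate 3 (0.0763) was left out. Without H69M replicate 1 the difference was -0.33, with a limma adjusted p of 0.00566.

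In all 5 falling members H69M replicate 1 was the highest of the H69M arrays, that is, nearest to H69. Among all 4274 genes that were lower in H69M this held for 2556 (59.8%). For KIF5C the distance to the H69 mean was -0.38 on H69M replicate 1, against -0.63 and -0.76 on the other H69M arrays, and for MAP2 it was -0.08, against -0.29 and -0.37. DCX was less uneven only relative to the size of its fall, with distances of -2.12, -2.37 and -2.44. The SD of its H69M arrays was 0.16, against 0.19 for KIF5C and 0.15 for MAP2. The neuroendocrine markers were likewise highest in H69M on replicate 1, with a mean level of 9.29, against 9.07 and 8.96 on the other H69M arrays. Fibroblast markers did not follow that order, with mean levels of 8.91, 9.29 and 8.83 on H69M replicates 1, 2 and 3. For them replicate 3 was nearest to H69. Without H69M replicate 1 the falls were larger, -2.40 for DCX, -1.09 for MAPT, -0.70 for KIF5C, -0.51 for MAP1B and -0.33 for MAP2.

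Among the stathmin genes, STMN1, also called oncoprotein 18, read 10.94, 10.93 and 11.00 in H69M, against 10.85, 10.94 and 10.82 in H69. The arrays overlapped, and the difference of 0.087 had a 95% confidence interval of -0.05 to 0.23 (limma adjusted p = 0.284). STMN2, the membrane-anchored stathmin of growth cones, read 10.42, 10.47 and 10.42 in H69M, against 10.46, 10.48 and 10.53 in H69. Its difference was -0.054, with an interval of -0.18 to 0.07 (limma adjusted p = 0.475). With each array centred on its median the difference was -0.14 (limma adjusted p = 0.0703).

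STMN3, another palmitoylated neuronal stathmin, read 8.85, 8.82 and 8.72 in H69M, against 8.87, 8.89 and 8.84 in H69. The difference was -0.071 (interval -0.21 to 0.07, limma adjusted p = 0.375), and the arrays of the lines overlapped slightly. With each array centred on its median it was -0.16 and passed (limma adjusted p = 0.0392). STMN4 read 4.96, 5.12 and 5.21 in H69M, against 5.15, 5.12 and 4.99 in H69. It was the only measured member below the 25th percentile of gene levels, so its difference of 0.0093 (interval -0.18 to 0.20) was measured near the dim end of the array, where RMA compresses folds. The other 8 measured members lay above the median level of all genes.

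STMN1 had a second, dimmer probe set (7913864). It read 5.81, 5.72 and 5.78 in H69M, against 5.95, 5.95 and 5.82 in H69, which gave a difference of -0.14, not past the threshold (limma adjusted p = 0.12). The signs of the 2 STMN1 probe sets were opposite, and both intervals included 0. Proliferation markers, which STMN1 often follows, averaged 9.93 to 9.97 on the H69M arrays and 9.94 to 9.99 on the H69 arrays. Of 8 such markers 1 was higher and 1 lower.

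The probe set that lists both TUBB3 and MC1R (7998063) read 10.79, 10.66 and 10.76 in H69M, against 10.62, 10.65 and 10.51 in H69. The difference of 0.14 (interval -0.02 to 0.29) did not pass (limma adjusted p = 0.136), and its signal cannot be divided between the neuronal beta-tubulin and the melanocortin receptor.

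**Figure D2:**
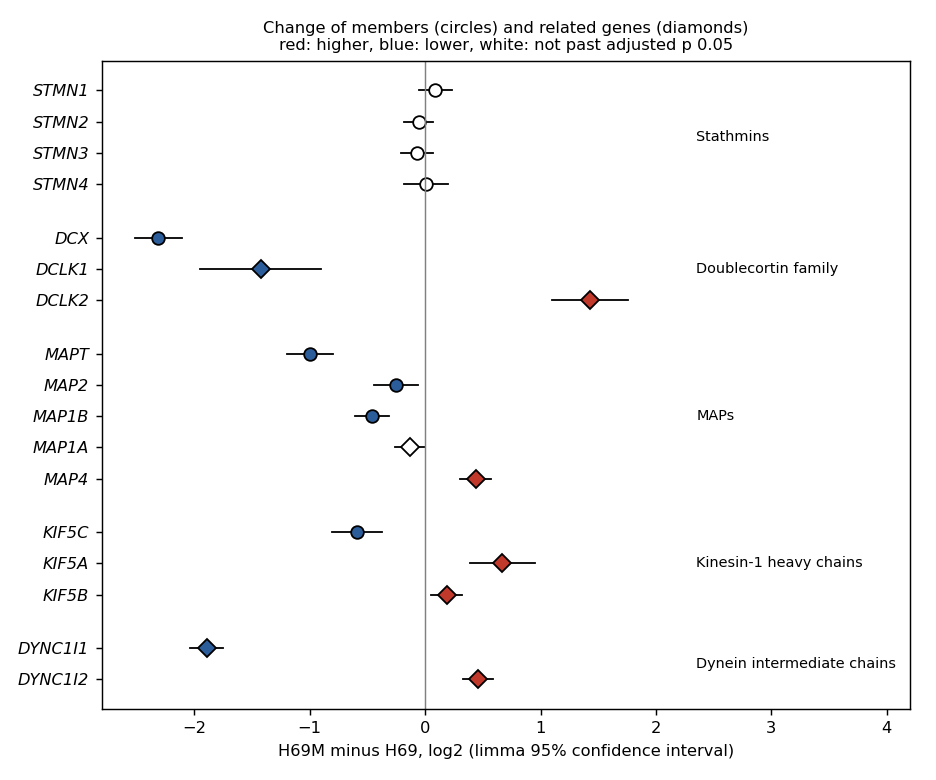
H69M minus H69 log2 difference (horizontal axis) with limma's 95% confidence interval for members (circles) and related genes (diamonds), coloured by call. The intervals of the 4 stathmins include 0. DCX, KIF5C and the dynein chain DYNC1I1 are lower while DCLK2, KIF5A and DYNC1I2 of the same families are higher. DCLK1 is lower along with DCX, and DYNC1I2 is drawn from its bright probe set only.

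Some relatives of the falling members were higher in H69M, and others were lower or did not pass. DCLK1 and DCLK2 encode kinases with doublecortin domains. DCLK1 fell by 1.42 on the log2 scale with DCX, reading 8.19, 8.32 and 7.37 in H69M, against 9.41, 9.48 and 9.24 in H69 (limma adjusted p = 0.00134). DCLK2 rose, reading 7.40, 7.94 and 7.87 in H69M, against 6.28, 6.44 and 6.19 in H69, a difference of 1.43 (limma adjusted p = 0.000106). Of 7 genes of the doublecortin family, DCX included, 1 was higher and 4 lower.

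Among the 3 kinesin-1 heavy chains KIF5C was the one that fell. KIF5A, a further neuronal heavy chain named after its values were seen, was 1.59-fold higher (0.67, limma adjusted p = 0.00261), and its other probe set was higher by 1.04. KIF5B, the heavy chain found in most cells, was 1.14-fold higher (0.19 ± 0.058, log2, SE; limma adjusted p = 0.0304), a call lost in 5 of the 6 fits that left out 1 array (adjusted p up to 0.0876; kept without H69M replicate 1), with the replicate block (0.0732) and with centred arrays (0.184). Within each array, KIF5C minus KIF5B was -0.42, -0.75 and -0.89 in H69M, against 0.05, 0.09 and 0.15 in H69. That shift of -0.78 did not overlap between lines, as must be so with KIF5C lower and KIF5B higher on every H69M array.

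MAP4, the microtubule-associated protein of non-neuronal cells, rose where its relatives MAP2 and MAPT fell. It read 8.29, 8.39 and 8.37 in H69M, against 7.94, 7.90 and 7.90 in H69 (0.44, limma adjusted p = 0.000478). MAPT minus MAP4 shifted by -1.43 and MAP2 minus MAP4 by -0.68 between the lines, with no overlap of arrays. MAP1A, at -0.13, missed the threshold (limma adjusted p = 0.0913) and passed with centred arrays (-0.22, 0.00888) and when genes below the median level were dropped (0.0408). MAP1B minus MAP1A shifted by -0.33 and DCX minus DCLK1 by -0.89, again without overlap. Two-sided exact permutation tests over the 6 arrays gave p = 0.1 for these 5 pairs, the smallest p that 3 against 3 arrays allow, and 0.133 after adjustment over the 8 pairs compared. For the pairs with MAP4 and KIF5B, the lack of overlap and that p add nothing to the single genes. There the member was lower and its relative higher on every H69M array, which fixes both. STMN2, STMN3 and STMN4 minus STMN1 shifted by only -0.14, -0.16 and -0.077, with exact p of 0.2, 0.1 and 0.6. STMN3 minus STMN1 did not overlap between the lines either, and its permutation p was also 0.133 after adjustment.

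**Figure D3:**
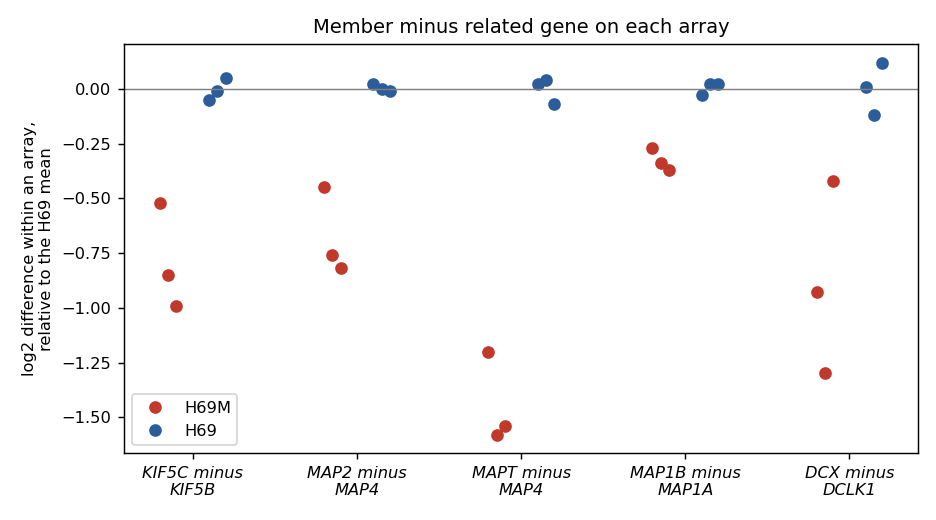
Log2 value of a member minus that of a related gene on each array, shown relative to the H69 mean (vertical axis), with H69M in red left of H69 in blue. Of the 5 pairs drawn, which leave out the stathmins, MAPT minus MAP4 has the largest shift (-1.43), and none of the 5 overlaps between the lines. For the pairs with MAP4 and KIF5B the single genes already fix that.

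Sequences upstream of the start sites are shown because the genes that fell differ from one another in CG content there. From RefSeq's promoter table (GRCh38.p14), 16 start sites of 7 members were used, TUBB3 among them. No start site of STMN2, STMN4 or MAPT was used. For each of 6 measured members the 250 bases before the farthest upstream start follow, 5′ to 3′ on the gene's strand, with each CG dinucleotide in capitals.
DCX, chrX:111412193-111412442 (minus strand): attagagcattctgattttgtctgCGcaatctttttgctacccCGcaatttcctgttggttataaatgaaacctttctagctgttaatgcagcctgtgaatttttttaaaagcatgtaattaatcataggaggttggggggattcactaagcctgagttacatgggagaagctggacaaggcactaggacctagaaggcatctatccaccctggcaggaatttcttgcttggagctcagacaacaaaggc
MAP2, chr2:209579082-209579331 (plus strand): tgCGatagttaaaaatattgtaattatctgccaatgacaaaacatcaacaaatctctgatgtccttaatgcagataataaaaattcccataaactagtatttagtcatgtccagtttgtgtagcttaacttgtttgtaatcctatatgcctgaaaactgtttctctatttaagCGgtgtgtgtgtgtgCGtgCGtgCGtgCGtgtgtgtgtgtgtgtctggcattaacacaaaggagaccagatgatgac
KIF5C, chr2:148874977-148875226 (plus strand): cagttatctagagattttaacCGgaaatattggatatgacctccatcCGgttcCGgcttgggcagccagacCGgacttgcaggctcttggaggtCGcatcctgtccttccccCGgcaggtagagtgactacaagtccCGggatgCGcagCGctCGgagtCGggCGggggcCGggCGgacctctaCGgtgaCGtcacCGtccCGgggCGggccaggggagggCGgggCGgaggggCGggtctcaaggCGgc
MAP1B, chr5:72107225-72107474 (plus strand): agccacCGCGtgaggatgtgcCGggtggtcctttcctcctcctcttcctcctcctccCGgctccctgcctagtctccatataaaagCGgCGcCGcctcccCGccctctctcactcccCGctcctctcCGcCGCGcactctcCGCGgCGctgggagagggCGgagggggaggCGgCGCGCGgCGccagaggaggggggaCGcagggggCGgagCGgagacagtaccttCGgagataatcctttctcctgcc
STMN1, chr1:25906881-25907130 (minus strand): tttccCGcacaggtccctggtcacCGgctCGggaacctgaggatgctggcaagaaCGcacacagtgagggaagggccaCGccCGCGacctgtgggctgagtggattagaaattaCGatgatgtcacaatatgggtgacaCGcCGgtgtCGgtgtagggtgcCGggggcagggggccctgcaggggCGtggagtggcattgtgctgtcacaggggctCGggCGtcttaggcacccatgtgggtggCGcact
STMN3, chr20:63652767-63653016 (minus strand): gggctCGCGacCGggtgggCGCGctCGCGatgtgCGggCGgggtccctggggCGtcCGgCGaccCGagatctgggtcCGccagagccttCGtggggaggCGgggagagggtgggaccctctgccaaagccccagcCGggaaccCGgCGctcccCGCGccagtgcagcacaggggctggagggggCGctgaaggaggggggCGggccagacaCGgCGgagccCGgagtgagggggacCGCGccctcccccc

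The DCX window held 2 CG dinucleotides and was 42.8% G or C, and the MAP2 window held 6 and was 37.6% G or C. KIF5C and MAP1B had 23 and 25, and STMN1 and STMN3 had 16 and 28. These counts depend on the start chosen. Windows of other starts held 2 for KIF5C, 11 for MAP1B, 25 and 28 for STMN1, 1 and 3 for DCX, and 4 and 8 for MAP2. The median of the 35116 windows in the table was 11. Genes that fell thus had both CG-poor and CG-rich windows. The letters TATAAA on either strand were present in 3 of the 16 member windows, 1 of DCX and 2 of MAP1B, against 10.7% of all windows. The GC box letters GGGCGG were in 7 of 16, against 42.6%. The left and right parts of the REST element, searched as TCAGCACC and GGACAGC on both strands, were in 0 of 16 windows, against 1.32% and 4.76% of all, and the E-box CAGCTG was in 0 of 16, against 14.0%. A missing match says only that these letters are not in these 250 bases. No window of STMN2, STMN4 or MAPT was searched, so the counts do not cover them. The windows include those of TUBB3, and some DCX windows overlap each other. REST itself, a repressor of neuronal genes, read 7.56, 8.02 and 8.19 in H69M, against 4.73, 4.99 and 4.83 in H69, so it was lowest in H69M on replicate 1.

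Outside the members, the microtubule and neurofilament lists held 164 measured genes, of which 49 were higher, 40 lower and 75 did not pass, with a median log2 difference of 0.0067. Over all genes 21.0% were higher and 23.2% lower, with a median of -0.041. The list counts that follow are to be read beside those shares. Large single changes stood beside many small ones. Of 15 alpha- and beta-tubulin genes, 4 were higher and 3 lower. TUBB6, a beta-tubulin of non-neuronal cells, was 3.26-fold higher (1.70 ± 0.10, log2, SE; limma adjusted p = 6.33e-06), and TUBA1C, a widely used alpha-tubulin, rose by 0.90. TUBA8 and the neuronal TUBB2B were lower, with differences of -0.89 and -0.43.

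Of 18 structural microtubule-associated protein genes, the members MAPT, MAP1B and MAP2 among them, 6 were higher and 7 lower. MAP7, an epithelial protein that recruits kinesin-1, fell by 1.38 on the log2 scale and MAP7D2 by 0.71, while their relative MAP7D3 rose by 0.57. Of 21 plus-end and minus-end binding genes 8 were higher and 2 lower, with rises of the linker genes CLIP2 (1.15) and CLIP3 (0.83) and of the navigator genes NAV3 (0.92) and NAV2 (0.63).

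Motor genes moved in both directions. Of 24 transport kinesins and light chains, KIF5C included, 8 were higher and 8 lower. KIF13A, a motor of endosomal carriers, was 13.0-fold higher, reading 8.12, 8.45 and 8.61 in H69M, against 4.75, 4.69 and 4.64 in H69 (limma adjusted p = 3.46e-07). KIF16B, another endosomal motor, rose by 1.52 and KIFAP3, the cargo adaptor of kinesin-2, by 1.28, while KIF21A fell by 0.91. The level of KIF16B was dim, at percentile 19.3 of all genes. The H69 mean of KIF13A, 4.69, also lay below the 25th percentile level of 5.58, near the dim end where RMA compresses folds. Of 22 dynein and dynactin genes 10 were higher and 3 lower. DYNC1I1, the intermediate chain of dynein enriched in neurons, read 6.77, 6.88 and 6.86 in H69M, against 8.78, 8.66 and 8.74 in H69, a 3.71-fold lower value (limma adjusted p = 4.04e-07). DYNC1I2, the intermediate chain found in most cells, was higher by 0.46 on its bright probe set (limma adjusted p = 0.000318). Its dim probe set did not move, and the mean of both did not pass (0.0892). The adaptor BICD1 fell by 0.84. Of 13 mitotic kinesins 3 were higher and 1 lower. KIFC1, the minus-end spindle motor, fell by 0.45. KIF23 was higher by 0.28, KIF4A by 0.26 and KIF20B by 0.21. The call of KIF23 was lost without H69M replicate 2 (0.0507). That of KIF4A was lost with centred arrays (0.097) and without H69M replicate 3 (0.0618), H69 replicate 2 (0.0753) or H69 replicate 3 (0.0594). KIF20B lost its call under 3 alternatives (0.0543 to 0.205) and in 4 fits with 1 array left out (0.101 to 0.116).

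Of 25 enzymes that modify or cut microtubules, 5 were higher and 11 lower. AGBL4, a deglutamylase of tubulin, was 4.0-fold lower in H69M, with 5.51, 5.50 and 5.30 in H69M, against 7.27, 7.49 and 7.56 in H69 (limma adjusted p = 2.12e-06). VASH1, which removes the terminal tyrosine of alpha-tubulin, fell by 1.01, whereas its partner SVBP rose by 0.77, and the ligase gene TTLL6 rose by 1.15. Of 19 kinases that act on tau, other MAPs or stathmins, 3 were higher and 5 lower. CDK5R2, a neuronal activator of the tau kinase CDK5, had a difference of -0.61, and the other activator gene CDK5R1, named after its values were seen, one of -0.53. CAMK4 fell by 0.81 and MAPK10 by 0.70, while TTBK2 rose by 0.80.

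**Figure D4:**
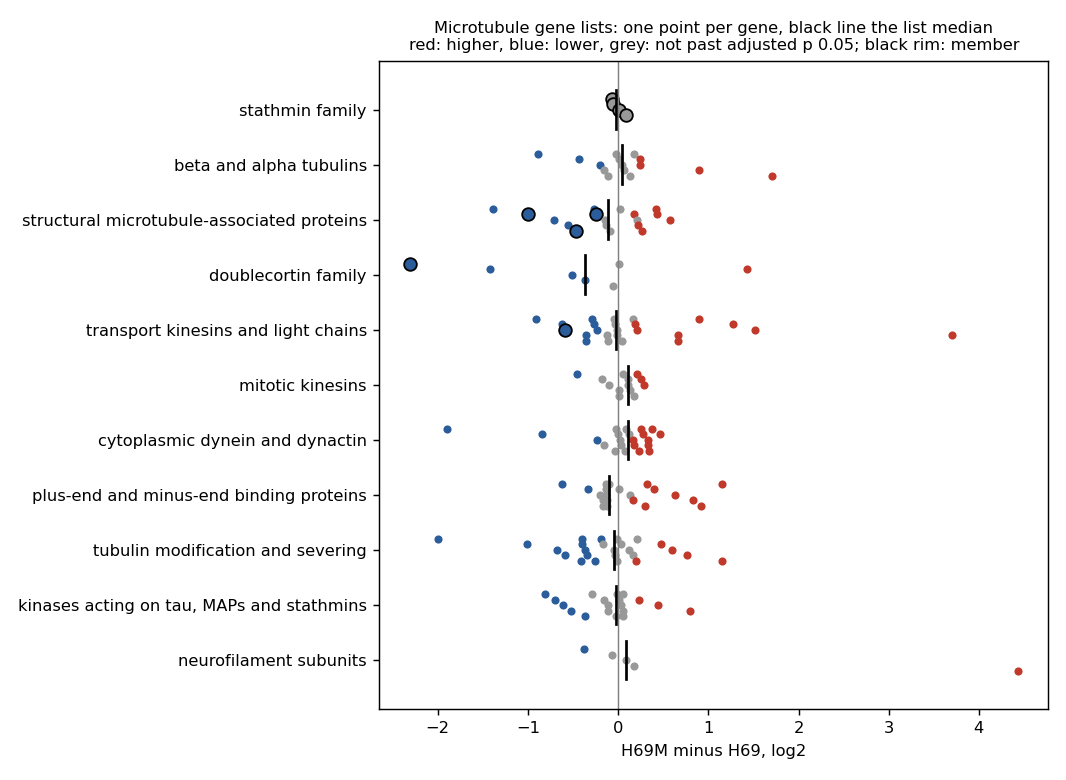
H69M minus H69 log2 difference (horizontal axis) of each measured gene in 11 microtubule and neurofilament lists, coloured by call, with members rimmed in black and list medians as black lines. Medians lie between -0.37 for the doublecortin family and 0.11, and single genes reach 3.70 (KIF13A) and 4.43 (NEFL).

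The neurofilament genes, the other neuronal filament system, did not share a direction, with 1 higher and 1 lower of 5 measured. NEFL, the light chain, was 21.6-fold higher, reading 10.72, 11.17 and 10.34 in H69M, against 6.51, 6.46 and 5.96 in H69 (limma adjusted p = 2.66e-06). INA, alpha-internexin, fell by 0.38, and the other 3 measured subunit genes did not pass.

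By the root mean square difference of centred log2 values over the 6 arrays, the genes most like DCX were IL17RB (0.043), HSD17B13 (0.058) and SHISAL2B (0.069). Their H69M minus H69 differences were -2.23, -2.41 and -2.25. With 2 groups of 3 arrays this likeness mostly reflects a fall of the same size. DCX was the only member past the threshold whose difference reached 1, MAPT falling just short.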

How the data were processed

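The authors deposited log2 values for 32321 probe sets on 6 arrays, made with RMA per the submitters' processing notes, which also name limma. The versions and the genome build were not given in the sources used here. Genes were named from 19158 probe sets with 1 platform symbol (18404 genes); 1388 probe sets with several symbols and 11775 that the annotation does not list were not used for genes. Of the former, 19128 matched RefSeq by Entrez ID. H69M was compared with H69 with limma 3.58.1 in R 4.3.3 (lmFit, eBayes, trend off, two-sided) on all genes, with Benjamini-Hochberg adjustment over all of them. Paralog pairs were tested with exact permutation tests (Python 3.11.15, scipy 1.17.1). Precision is limited by the number of arrays, with a median standard error of 0.075. In simulated data, 200 of 18404 genes were changed. There limma found 4% of the changes of 0.25 in log2, 50% of those of 0.5 and 90% of those of 1. In the real arrays 44.2% of genes passed, so the adjustment was stricter in the simulation. Those shares therefore do not give the power of this comparison. Same-numbered arrays did not deviate together (r of 0.021, 0.007 and 0.010), and the main fit did not pair them. Such values cannot show whether same-numbered arrays were handled together.

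The members and lists were chosen with earlier results of these data known. Named genes are the members, up to 4 called genes with the largest change per list, the paralogs, REST and the 3 genes nearest to DCX; others are said to be named after their values were seen. Glia markers had 0 higher and 1 lower of 6 measured, and mature neuron markers 1 higher and 5 lower of 9. Some genes of the lists are not analysed here.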

Additional observations from a re-analysis of the deposited data

How the results depend on the processing

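DCX, MAPT, KIF5C and MAP1B kept their direction and call under all 16 alternatives, 6 of which left out 1 array. With 1 array left out the differences lay between -2.40 and -2.24 for DCX, -1.09 and -0.95 for MAPT, -0.70 and -0.51 for KIF5C, -0.51 and -0.41 for MAP1B, and -0.33 and -0.19 for MAP2. In those fits the count of lower members was 4 or 5, and with each array centred on its median it was 6. Centring each array on its median over the 18404 genes, which was on average 0.09 higher in H69M than in H69, gave 3110 genes higher and 6827 lower (31.3% of calls higher, against 47.5%) and brought STMN3 past the threshold (-0.16). The sign of STMN1 turned with centring (-0.003), with the mean of its probe sets (-0.026) and with its more variable probe set (-0.14). That of STMN4 turned with centring (-0.081), with quantile normalization applied again (-0.051) and among the fits with 1 array left out (-0.046 to 0.076). With those probe set choices STMN4 minus STMN1 became 0.035 and 0.15, and with the more variable probe set STMN2 minus STMN1 became 0.085 and STMN3 minus STMN1 0.067. The cause of these turns was not tested. STMN4 has no value in the fits that left out dim genes. With the replicate block 3617 genes were higher and 4021 lower, and the calls of KIF5B and KIF20B were lost; no member's call changed. Of 46 other named genes, 40 kept direction and call under the alternatives that gave them a value. Dim genes limit what can be read, since RMA values carry no detection call.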

Other observations

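Of the 5 measured protein-coding genes on each side of DCX on chromosome X, in the order of the RefSeq table, 2 were lower and 2 higher of 10. Their median log2 difference was -0.24. Over all genes 23.2% were lower and 21.0% higher, with a median of -0.041. Whether the region changed together was not tested. The nearest on either side, CAPN6 and ALG13, had differences of -0.26 (limma adjusted p = 0.0571) and -0.31 (limma adjusted p = 0.00292). AMOT, the fifth gene on one side, which encodes the angiomotin scaffold of tight junctions and was named after its values were seen, read 6.08, 6.02 and 6.64 in H69M, against 9.09, 8.94 and 8.85 in H69, a 6.55-fold lower value in H69M (limma adjusted p = 6.38e-06). Around MAPT 2 of 10 neighbours were higher and 2 lower, around KIF5C 3 and 1, around MAP1B 2 and 4, and around MAP2 2 and 1.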
